A study of Mus musculus with 4 samples.

Results

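In E16.5 mouse lungs taken whole, 60 genes with no common family had at least 2 times as much transcript when STK11 was missing from the epithelium. They were chosen from the table of FPKM values, which are read numbers scaled to the length of the transcript and to the size of the library. A gene was taken when its lower Shh-Stk11 value was at least 2 times its higher Control value and its Shh-Stk11 mean was at least 1 FPKM. Of the 22556 genes of the table, 93 passed both thresholds, or 0.412%, and in 77 of them (0.341%) the lower Shh-Stk11 value was above 0. Symbols of RIKEN clones, predicted genes, microRNAs, small nucleolar RNAs and histones removed 22 of these, and 8 more were set aside by name (Fbp1, Fbp2, Pax7, Areg, Ereg, Pde10a, Ppargc1a and Foxa3). Of the remaining 63, 3 met the rule only because 0 is not less than 2 times 0. These were the small Cajal body RNAs Scarna3a, at 43.5 FPKM in Shh-Stk11 1, and Scarna8, at 13.5 FPKM in Shh-Stk11 2, and the Y-linked demethylase gene Kdm5d, at 13.8 FPKM in Shh-Stk11 2. Each was listed at 0 in the other 3 libraries, and they were not counted further. The mirror rule, with both Control values at least 2 times both Shh-Stk11 values, was met by 138 genes, and the doubling rule by 68, when the same symbols were removed, no gene was set aside by name and, for both rules, the lower value of the higher group was above 0. Since the values of this contrast chose the genes, their rise is described here and was not tested.

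There were 2 Control libraries, with genotype Shh-Cre; Stk11F/+, and 2 Shh-Stk11 libraries, with genotype Shh-Cre; Stk11F/F, all at embryonic day 16.5. Both groups thus carried the Cre driver and a floxed allele, and Control epithelium kept 1 intact Stk11 allele. Shh-Cre is active in the endoderm that gives rise to the lung epithelium, whereas mesenchyme, vessels and blood kept Stk11. The strain label was C57BL/6, and the methods of the study give a mixed background. In a whole organ, more cells of a type and more RNA per cell cannot be told apart. The read number estimated from the spacing of low values ran from 30.9 M to 38.1 M per library. Stk11 itself was at 44.0 and 45.5 FPKM in the Controls and 29.5 and 26.0 FPKM in the Shh-Stk11 libraries, so that the groups did not overlap (limma adjusted p 0.0499). The Y-linked genes Ddx3y, Eif2s3y and Uty were at 23.5, 38.0 and 7.91 FPKM in Shh-Stk11 2 and at no more than 0.0405 FPKM in the other 3 libraries, as Kdm5d was at 0 there. Xist, which is transcribed from the inactive X chromosome, was at 0.239 FPKM in Shh-Stk11 2 and between 65.1 and 169 FPKM in the others, so that the groups were not matched for sex. The sources used here do not say whether a library was made from 1 embryo or several, or which shared a litter.

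STK11, also called LKB1, is a master kinase that activates AMPK and a family of related kinases. Among these, the salt-inducible kinases hold the CRTC co-activators of the transcription factor CREB in the cytoplasm, and CREB binds the cyclic AMP response element, a palindrome found in many promoters. In lung cancer, LKB1 is known as a tumor suppressor of the epithelium. In the developing lung, the epithelium branches, lays down airways and prepares alveolar cells, and these steps draw on transporters, secreted proteins and regulators of cell shape.

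The promoters of the genes were inspected for this element because of that route. RefSeq held at least 1 promoter window, from 250 bases before to 50 bases after the start, for 45 of the 60 genes, 67 windows in all. The full element TGACGTCA, which reads the same on both strands, was present for 3 of these 45 genes (6.67%), against 549 of the 27025 genes of the promoter table (2.03%). The short form TGACG on either strand, which every full element also holds, was present for 13 of 45 genes (28.9%) against 23.1% of all genes. The 3 genes with the full element were Daam2, Dpcr1 and Tmem59l. Their 250 bases before the start are shown 5′ to 3′ on the coding strand, with the element in capitals, to let its place be seen. All 3 lie on the minus strand of GRCm38.p6, at chr17:49564338-49564587 for Daam2, chr17:35643696-35643945 for Dpcr1 and chr8:70487349-70487598 for Tmem59l.
Daam2: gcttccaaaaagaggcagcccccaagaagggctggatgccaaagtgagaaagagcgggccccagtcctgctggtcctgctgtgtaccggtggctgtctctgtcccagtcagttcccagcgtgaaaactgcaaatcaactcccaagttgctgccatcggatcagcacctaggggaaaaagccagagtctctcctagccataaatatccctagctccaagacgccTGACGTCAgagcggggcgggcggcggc
Dpcr1: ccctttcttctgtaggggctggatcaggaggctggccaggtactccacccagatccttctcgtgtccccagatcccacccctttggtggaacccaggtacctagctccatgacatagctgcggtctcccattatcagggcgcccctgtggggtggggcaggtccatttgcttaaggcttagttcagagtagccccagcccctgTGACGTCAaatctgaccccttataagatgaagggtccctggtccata
Tmem59l: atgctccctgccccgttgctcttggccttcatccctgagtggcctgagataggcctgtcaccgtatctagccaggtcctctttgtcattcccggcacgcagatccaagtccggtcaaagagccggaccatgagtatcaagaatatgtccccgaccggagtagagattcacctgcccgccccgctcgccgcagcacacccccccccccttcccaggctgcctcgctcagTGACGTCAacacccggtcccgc

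In these windows the element began 27 bases before the start of Daam2, 47 bases before that of Dpcr1 and 22 bases before that of Tmem59l. A match is a string of letters and not a measured binding site. The AP-1 motif TGANTCA was found for 11.1% of the genes against 8.97%, the forkhead motif TGTTTAC for 4.44% against 4.05% and the TEAD motif GGAATG for 20% against 16.6%, each on either strand. Genes with several windows had more chances of a match, and the 45 genes had more windows each than all genes. Per window, the full element was found in 5.97% of 67 windows against 1.79% of 32851, the short form in 23.9% against 20.8%, the AP-1 motif in 8.96% against 7.81%, the forkhead motif in 2.99% against 3.65% and the TEAD motif in 14.9% against 14.7%. With 3 genes behind it, the share of the full element is a description only.

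The 60 genes spanned a wide range of levels. Their Control means lay between 0.107 and 36.4 FPKM, with a median of 1.61 FPKM, and their Shh-Stk11 means between 1.01 and 94.4 FPKM, with a median of 5.12 FPKM. In 20 genes the Shh-Stk11 mean reached 10 FPKM, and in 20 the Control mean was under 1 FPKM. The ratio of the lower Shh-Stk11 to the higher Control value, called the separation here, had a median of 2.41. It was at least 4 in 11 genes and under 2.1 in 15. On the log2(FPKM + 0.1) scale the median difference was 1.48, where the 13770 genes whose mean reached 0.5 FPKM had a median of -0.05. Every one of the 60 genes was among these 13770, because the rule on the Shh-Stk11 mean alone puts the mean of all 4 libraries at 0.5 FPKM or more.

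**Figure D1:**
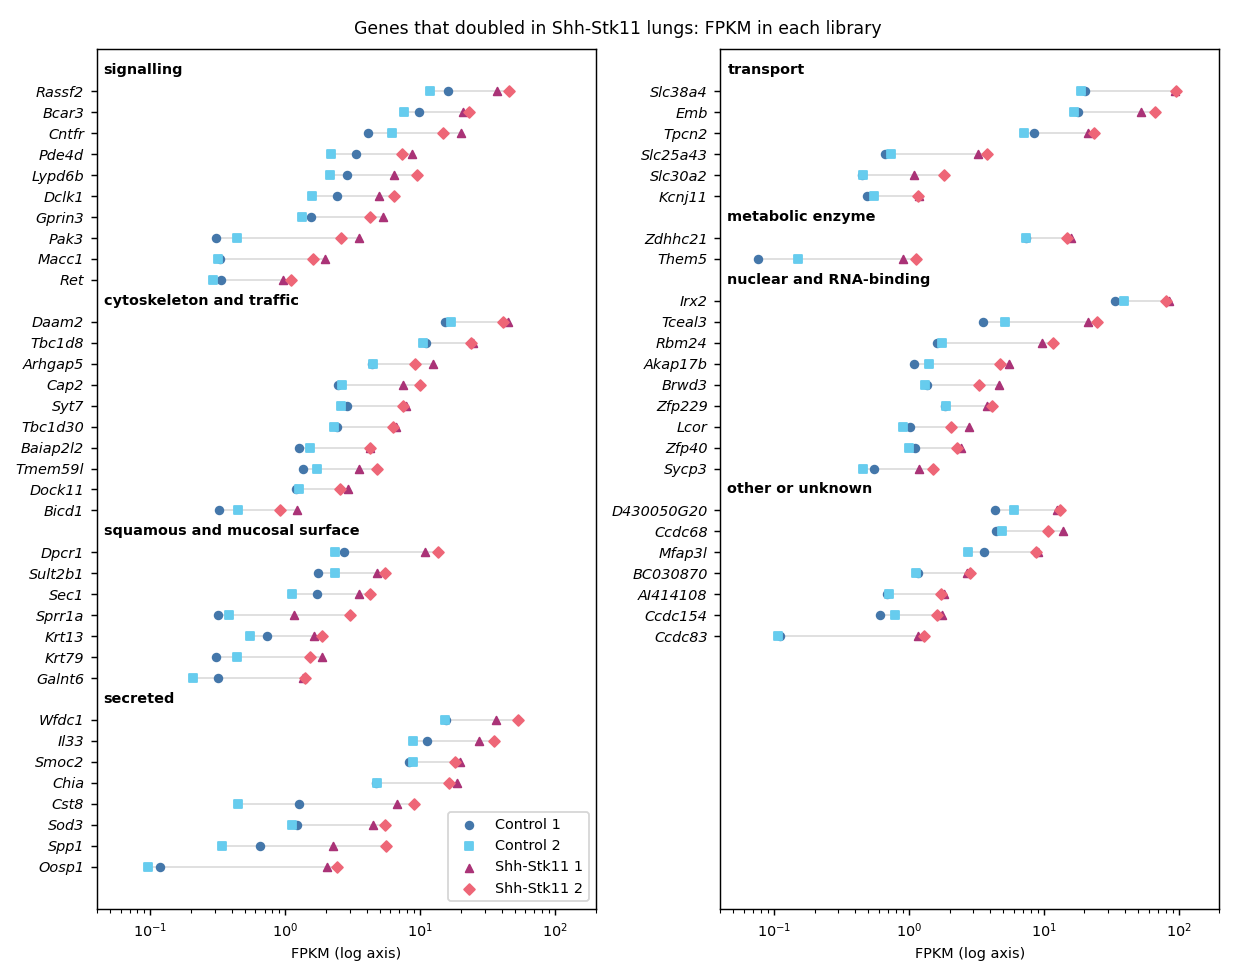
FPKM (log axis) of 59 of the 60 genes in each of the 4 libraries, grouped by what the product is known to do and ordered by Shh-Stk11 mean; blue symbols are the Control libraries and purple and pink symbols the Shh-Stk11 libraries. The groups are apart in each row by construction of the rule, and the rows range from Oosp1, with a Control mean of 0.107 FPKM, to Slc38a4, at 94.4 FPKM in the Shh-Stk11 mean.

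Transport proteins included the gene with the highest Shh-Stk11 mean. Slc38a4, a sodium-coupled neutral amino acid transporter whose gene is imprinted, was at 20.01 and 18.9 FPKM in the Controls and 94.0 and 94.8 FPKM in the Shh-Stk11 libraries, a ratio of means of 4.85. The replicates of each genotype lay close together, with means of 19.5 ± 0.788 FPKM and 94.4 ± 0.554 FPKM (SD, n = 2). Emb, which encodes embigin, a chaperone of monocarboxylate transporters, was at 18.02 and 16.8 FPKM against 52.0 and 66.9 FPKM. Tpcn2, the two-pore channel of lysosomes, was at 8.51 and 7.08 FPKM against 21.3 and 23.6 FPKM. The other 3 transport genes were of low level. Slc25a43, of the mitochondrial carrier family, was at 0.668 and 0.735 FPKM against 3.26 and 3.76 FPKM. The zinc exporter gene Slc30a2 and the potassium channel gene Kcnj11 had Shh-Stk11 means of 1.45 and 1.18 FPKM. In 5 of the 6 transport genes, Kcnj11 being the exception, Shh-Stk11 2 was higher than Shh-Stk11 1, against 33 of all 60 genes.

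Genes of secreted proteins had the widest separations of the 8 role groups, with a median of 3.45 over 8 genes. Oosp1, named as an oocyte secreted protein, was at 0.118 and 0.0951 FPKM in the Controls and 2.04 and 2.39 FPKM in the Shh-Stk11 libraries. An estimated 3.4 reads lay behind the value of Control 1 and 2.3 behind that of Control 2, against 48.2 for Shh-Stk11 1 and 60.7 for Shh-Stk11 2, so that the Control level rested on very few reads. The 5 other germ cell genes listed with it were at 0.227 FPKM or less in every library. Cst8, a cystatin-related protein, was at 1.27 and 0.447 FPKM against 6.67 and 8.92 FPKM, and its Control libraries differed 2.84-fold, the most of all 60 genes. The Control values of Cst8 rested on an estimated 28.8 reads in Control 1 and 8.4 in Control 2. Spp1, which encodes osteopontin, was at 0.648 and 0.340 FPKM against 2.27 and 5.53 FPKM, so that Shh-Stk11 1 was at 0.411 times the level of Shh-Stk11 2. Sod3, the extracellular superoxide dismutase, was at 1.23 and 1.12 FPKM against 4.46 and 5.51 FPKM.

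The abundant secreted products separated less. Wfdc1, of the whey acidic protein family of protease inhibitors, was at 15.41 and 15.36 FPKM against 36.5 and 52.6 FPKM. Il33, an alarmin cytokine made by barrier epithelium and stroma, was at 11.2 and 8.77 FPKM against 27.2 and 35.4 FPKM. Chia, the acidic mammalian chitinase (Chia1 in current use), and the matricellular gene Smoc2 are named here after their values were seen. Chia was at 4.72 and 4.78 FPKM against 18.8 and 16.2 FPKM, and Smoc2 was at 8.30 and 8.82 FPKM against 19.6 and 18.03 FPKM.

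A group of 7 genes belonged to stratified or mucous surfaces. Dpcr1 (Mucl3 in current use), a mucin-like membrane protein, was the highest, at 2.71 and 2.34 FPKM in the Controls and 10.8 and 13.5 FPKM in the Shh-Stk11 libraries. Sult2b1, a cholesterol sulfotransferase of keratinocytes, was at 1.75 and 2.35 FPKM against 4.81 and 5.44 FPKM. Galnt6, which starts mucin-type O-glycosylation, was at 0.315 and 0.207 FPKM against 1.35 and 1.40 FPKM. The keratin gene Krt79 was at 0.305 and 0.435 FPKM against 1.87 and 1.51 FPKM, and Krt13, a keratin of stratified mucosa, was at 0.735 and 0.543 FPKM against 1.64 and 1.87 FPKM. Sprr1a, a precursor of the cornified envelope, was at 0.315 and 0.380 FPKM against 1.17 and 2.99 FPKM, with 7.2 estimated reads in each Control library. Sec1, a fucosyltransferase-related gene singled out after its values were seen, was at 1.72 and 1.12 FPKM against 3.50 and 4.21 FPKM. These genes thus rested on low levels, from 1.38 to 12.2 FPKM in the Shh-Stk11 mean. Of the other 5 listed genes of the oesophagus and basal cells, 2 reached the filter of the test. Krt4 had a log2 fold change of 0.10 and was not past the threshold (limma adjusted p 0.93), while Krt15 was lower, with a log2 fold change of -0.93 (limma adjusted p 0.0227). Sequences of Sprr1a and of the keratins resemble those of their relatives, and how shared reads were assigned is not given in the sources used here.

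Signalling proteins made up 10 genes. Rassf2, of the Ras association domain family, was the highest, at 16.0 and 11.8 FPKM in the Controls and 37.1 and 45.4 FPKM in the Shh-Stk11 libraries. Bcar3, an adaptor of p130Cas, was at 9.72 and 7.60 FPKM against 20.7 and 22.8 FPKM. Pak3, a p21-activated kinase best known from neurons, was at 0.304 and 0.438 FPKM against 3.50 and 2.57 FPKM, a ratio of means of 8.18. Macc1, a regulator of the Met receptor gene, was at 0.327 and 0.315 FPKM against 1.98 and 1.60 FPKM. Pde4d, which degrades cyclic AMP, was at 3.33 and 2.17 FPKM against 8.61 and 7.31 FPKM, and the separation of 2.196 was set by Control 1. The receptor genes Ret and Cntfr were chosen for naming after their values were seen. Ret, the receptor tyrosine kinase of the GDNF family, was at 0.331 and 0.292 FPKM against 0.956 and 1.11 FPKM. Cntfr, the ligand-binding chain of the ciliary neurotrophic factor receptor, was at 4.08 and 6.17 FPKM against 19.95 and 14.8 FPKM. The remaining genes of this kind, Lypd6b, Dclk1 and Gprin3, had Shh-Stk11 means of 7.89, 5.67 and 4.74 FPKM.

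Regulators of the cytoskeleton and of membrane traffic were 10 genes, and none of them separated by more than 2.82. Daam2, a formin that nucleates actin filaments, was at 15.2 and 17.0 FPKM in the Controls and 45.1 and 40.7 FPKM in the Shh-Stk11 libraries. Tbc1d8, a TBC domain regulator of Rab proteins, was at 10.95 and 10.46 FPKM against 24.6 and 23.9 FPKM. The others of this kind were Arhgap5, Cap2, Syt7, Tbc1d30, Baiap2l2, Tmem59l, Dock11 and Bicd1, with Shh-Stk11 means from 10.8 FPKM for Arhgap5 down to 1.07 FPKM for Bicd1. In 7 of the 10, Shh-Stk11 1 was the higher Shh-Stk11 library, against 27 of all 60 genes.

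Nuclear and RNA-binding proteins were 9 genes. Irx2, an Iroquois homeobox factor of the lung epithelium, had the highest Control mean of the 60 genes and the second highest Shh-Stk11 mean, at 33.8 and 39.1 FPKM in the Controls and 85.1 and 80.3 FPKM in the Shh-Stk11 libraries. Rbm24, a splicing regulator best known from muscle, was at 1.63 and 1.75 FPKM against 9.73 and 11.6 FPKM, a ratio of means of 6.32. Tceal3, an elongation factor A-like protein, was at 3.53 and 5.19 FPKM against 21.3 and 24.97 FPKM. The rest, Akap17b, Brwd3, Zfp229, Lcor, Zfp40 and the meiotic gene Sycp3, had Shh-Stk11 means between 1.35 and 5.11 FPKM. The zinc finger genes Zfp229 and Zfp40 belong to a large family with similar sequences, so that their values are less certain.

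Of the 3 metabolic enzyme genes, 2 are described. Zdhhc21, a palmitoyltransferase, was at 7.31 and 7.39 FPKM in the Controls and 15.8 and 14.96 FPKM in the Shh-Stk11 libraries. Them5, a mitochondrial acyl-CoA thioesterase, was at 0.0754 and 0.152 FPKM against 0.900 and 1.12 FPKM, with 3.4 and 5.6 estimated reads in the Controls. Of the 7 genes of other or unknown function, the coiled-coil gene Ccdc83 was at 0.110 and 0.106 FPKM against 1.17 and 1.29 FPKM, with 5.6 and 4.5 estimated reads in the Controls. Ccdc68 was at 4.44 and 4.90 FPKM against 13.8 and 10.7 FPKM. D430050G20, a long noncoding RNA (Gm20554 in current use), was at 4.32 and 6.04 FPKM against 12.6 and 13.1 FPKM. The last of these were Mfap3l, BC030870, AI414108 and Ccdc154, with Shh-Stk11 means from 8.91 FPKM for Mfap3l to 1.68 FPKM for Ccdc154.

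The threshold of the rule cut through a continuous range. Just inside it were Zfp229 (separation 2.02; 1.84 and 1.88 FPKM against 3.799 and 4.10 FPKM), Dock11 (2.02; 1.21 and 1.26 FPKM against 2.92 and 2.554 FPKM) and Lcor (2.02; 1.01 and 0.908 FPKM against 2.79 and 2.05 FPKM). Just outside it were Zim1 (1.98; 2.87 and 3.18 FPKM against 7.24 and 6.28 FPKM), Cyp3a13 (1.98; 0.935 and 0.736 FPKM against 1.85 and 2.30 FPKM) and Dio3os (1.97; 0.636 and 1.21 FPKM against 2.60 and 2.38 FPKM). With a separation of at least 1.5 the rule gave 259 genes, and with at least 3 it gave 18.

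The Shh-Stk11 libraries were compared within the 60 genes, because the rule only fixed the lower of their values. Shh-Stk11 1 was higher in 27 genes and Shh-Stk11 2 in 33. The higher exceeded the lower by 1.18 times in the median, against 1.15 times between the Control libraries. A difference of at least 1.5 times was seen between the Shh-Stk11 libraries in 3 genes, Sprr1a, Spp1 and Slc30a2, and in each of them Shh-Stk11 2 was higher. Between the Control libraries it was seen in 8 genes. Sprr1a differed most between the Shh-Stk11 libraries, by 2.56 times.

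**Figure D2:**
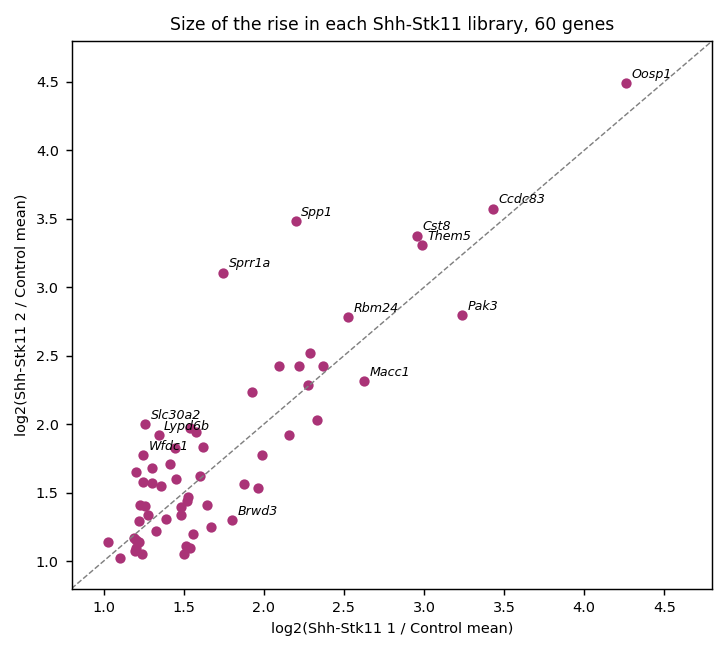
Rise of each of the 60 genes in Shh-Stk11 1 (horizontal axis) and Shh-Stk11 2 (vertical axis), each as log2 of the library's FPKM over the Control mean; the dashed line marks equal values. Most genes lie near the line, Spp1 and Sprr1a lie well above it, and Oosp1 is at the upper right end.

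Transcript length moved with the difference between the Shh-Stk11 libraries. The longest annotated transcripts of the 60 genes had a median length of 3147.5 bases, against 3309 bases for all tested genes with a length, and a median GC content of 48.8% against 49.9%. Of the 30 genes with longer transcripts than their median, 20 were higher in Shh-Stk11 1. Of the 30 others, 7 were. Over all tested genes split at the same length, 59.0% of the 7280 longer and 31.7% of the 6353 others were higher in Shh-Stk11 1, so that the split by length was also present among genes at large. When the trend with length and GC content was removed from every library, 48 of the 60 genes still met the rule, and 13 genes entered it. The 12 that left it were AI414108, Arhgap5, BC030870, Bicd1, Brwd3, Dclk1, Dock11, Lcor, Sycp3, Zdhhc21, Zfp229 and Zfp40. Their separations had been between 2.02 and 2.43. All 15 genes with the largest separations stayed. The part of length and GC content in the rise of these 12 genes was not tested further.

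**Figure D3:**
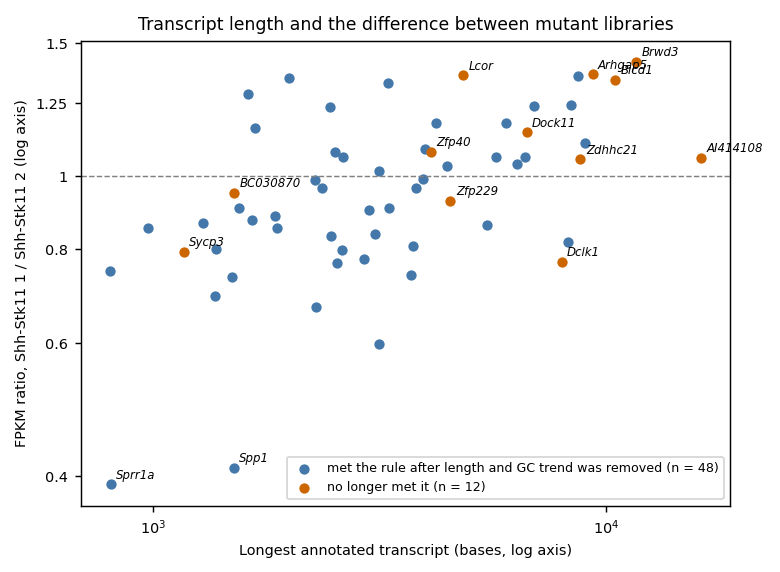
FPKM in Shh-Stk11 1 divided by FPKM in Shh-Stk11 2 (log axis) against the length of the longest annotated transcript (bases, log axis) for the 60 genes; orange points are the 12 genes that no longer met the rule once the length and GC trend was removed. Above the dashed line, where Shh-Stk11 1 was higher, 20 of the 27 points are transcripts longer than the median, and Sprr1a and Spp1 are the lowest points.

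The genes lay on the X chromosome and on all autosomes other than 14 and 16, with some neighbours among them. The X chromosome held 6 of the 59 genes with a RefSeq position (10.2%), against 468 of the 13678 tested genes with one (3.42%). These were Pak3, Slc25a43, Tceal3, Akap17b, Brwd3 and Dock11. Of the Shh-Stk11 libraries, Shh-Stk11 1 was the higher in 4 of the 6 and Shh-Stk11 2 in 2. Y-linked transcripts were high in Shh-Stk11 2 alone, and the part of sex in the values of these 6 genes was not tested. In the order of the genes of the table along GRCm38.p6, Rbm24 and Cap2 were direct neighbours on chromosome 13, and so were D430050G20 and Irx2 there, and Akap17b and Slc25a43 on the X chromosome. The RefSeq spans of D430050G20 and Irx2 overlap, and whether reads were assigned by strand is not given in the sources used here, so that their reads cannot be told apart. Dock11 lay 5 genes away from Akap17b, and Sec1 lay 7 genes away from Sult2b1 on chromosome 7. Of the genes between them, none met the rule. Pgrmc1, between Dock11 and Akap17b, was at 115 and 121 FPKM in the Controls and 131 and 151 FPKM in the Shh-Stk11 libraries. Sphk2, between Sec1 and Sult2b1, was at 8.54 and 8.70 FPKM against 7.52 and 7.999 FPKM. Both were chosen for naming after their values were seen. Chromosome 10, which holds Stk11, held 2 of the genes, Sycp3 and Tbc1d30.

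To ask whether relatives or partners of the genes moved with them, 20 families and receptor groups were written down after the 60 genes were known. In 19 of them at least 1 other member was tested, and in the SMOC family of Smoc2 the other member was below the filter. The other members of these groups did not choose the genes and were tested with limma on log2(FPKM + 0.1) over all 13770 genes, with Benjamini-Hochberg adjustment. Of 79 such members tested, 2 were higher and 0 were lower at an adjusted p of 0.05, while 15 had an unadjusted p under 0.05, as 2095 of the 13770 genes did (15.2%). Among all tested genes 0.98% were called higher and 1.29% lower. The median log2 fold change of the 79 was 0.01.

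The called relatives were those of Irx2 and Pak3. Irx1, the neighbour of Irx2 in the Iroquois family, was at 49.1 and 46.4 FPKM in the Controls and 76.4 and 79.9 FPKM in the Shh-Stk11 libraries, a log2 fold change of 0.71 (SE 0.119) at a limma adjusted p of 0.0398. Irx3 and Irx5, also Iroquois factors, had log2 fold changes of -0.02 and 0.03. Pak1 was at 7.05 and 7.62 FPKM against 13.2 and 12.1 FPKM, a log2 fold change of 0.78 (SE 0.13) at a limma adjusted p of 0.0398. The kinase genes Pak2, Pak4 and Pak6 had log2 fold changes of 0.03, -0.17 and -0.45 and were not past the threshold. Across 15 alternatives the limma adjusted p of Irx1 ran from 0.0285 to 0.166 and missed the threshold in 7, and that of Pak1 ran from 0.0226 to 0.202 and missed it in 8. Both missed it when any 1 of the 4 libraries was left out.

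The other families held no call. The 8 relatives of Slc38a4 lay between -0.29 and 0.33 on the log2 scale, with 0 of them under an unadjusted p of 0.05 in limma. Pde4a and Pde4b, relatives of Pde4d, had log2 fold changes of -0.17 and -0.14, and Daam1, the relative of Daam2, one of -0.05. The relatives of Galnt6 lay between -0.49 and 0.35 over 10 genes. Bsg and the monocarboxylate transporters that embigin and basigin escort lay between -0.07 and 0.06 over 4 genes.

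Ligands and co-receptors of Ret lay between -1.11 and 0.94 on the log2 scale. Among 7 tested genes around Ret, Gdnf had a log2 fold change of 0.94 and the co-receptor gene Gfra1 one of -1.11, with adjusted p of 0.254 and 0.0946 in limma. None of the 7 passed the adjusted threshold in limma. Unadjusted, 4 of them were under 0.05, where 15.2% of all tested genes were, and of these Gdnf had a positive value and Gfra1, Gfra2 and Nrtn negative ones. The relatives of Dock11, Dock9 and Dock10, had log2 fold changes of 0.64 and 0.84 (limma adjusted p 0.109 and 0.0996).

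**Figure D4:**
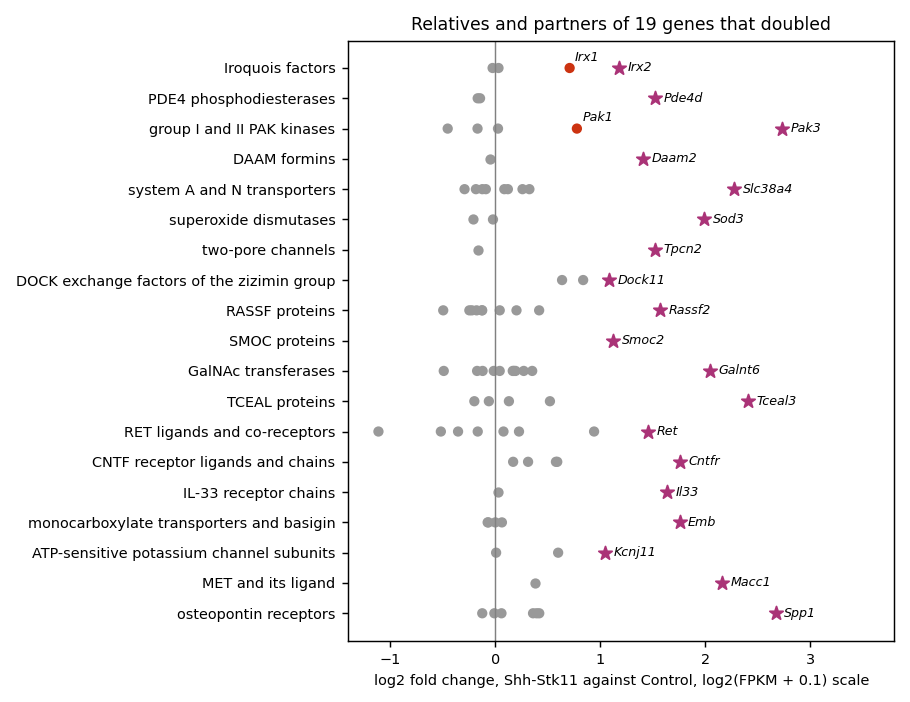
Log2 fold change (Shh-Stk11 against Control, log2(FPKM + 0.1) scale) of the tested relatives and partners of 19 of the genes, 1 row per family; stars are the genes chosen by the rule, dots the other members, and red dots those past an adjusted p of 0.05 in limma. The 2 red dots are Irx1 at 0.71 and Pak1 at 0.78, and the grey dots lie between -1.11 and 0.94.

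Gene lists tied to STK11 and to the epithelium were examined in the same fit, without the genes that met the doubling rule. Of 16 genes known as high in human lung tumors without LKB1, Pde4d was in the set. Of the other 10 tested, 0 were called in limma, 3 had an unadjusted p under 0.05 (Avpi1, Ptp4a1 and Tesc, each higher) where 15.2% of all tested genes did, and the median log2 fold change was 0.25. The list of cyclic AMP, CREB and CRTC targets held Pde4d and the set-aside genes Pde10a, Ppargc1a, Areg and Ereg. Of the other 22 tested, 1 was higher and 1 lower in limma, with a median of 0.02. Among all tested genes 0.98% were called higher and 1.29% lower. An unadjusted p under 0.05 in limma was found for 7 of the 22, where 15.2% of all tested genes had one. The immediate early gene Egr1 was at 3.03 and 3.26 FPKM in the Controls and 6.26 and 6.84 FPKM in the Shh-Stk11 libraries (log2 fold change 1.04, limma adjusted p 0.0259). Crh, the corticotropin-releasing hormone gene, was at 41.6 and 48.0 FPKM against 14.8 and 12.7 FPKM (log2 fold change -1.70, limma adjusted p 0.00441). Crem, Per2, Nr4a1 and Atf3 had an unadjusted p under 0.05 and log2 fold changes of 0.45, 0.47, 0.50 and 0.77 in limma, with adjusted p between 0.154 and 0.185. Dusp1 was the other uncalled gene with an unadjusted p under 0.05, at -0.32. The calls of Egr1 and Tnfrsf12a were both lost when any 1 library was left out, and that of Crh without Control 2.

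The list of epithelial growth and injury genes held Il33 and Sprr1a, and the set-aside genes Areg and Ereg. Of the other 14 tested, Tnfrsf12a, the receptor of the cytokine TWEAK, was higher, at 5.42 and 7.35 FPKM in the Controls and 14.4 and 16.6 FPKM in the Shh-Stk11 libraries (log2 fold change 1.28, limma adjusted p 0.0254), and 0 were lower. Among all tested genes 0.98% were called higher and 1.29% lower. The median of the 14 was 0.07, and 5 had an unadjusted p under 0.05, where 15.2% of all tested genes did. Of these, Btc, Cd44 and Sox9 had positive values, and Cxcl15, a chemokine of the lung epithelium, was at 455 and 285 FPKM against 144 and 181 FPKM (log2 fold change -1.16, limma adjusted p 0.0772). Of 6 tested liver and intestine genes 0 were called and 0 had an unadjusted p under 0.05 in limma, with a median of -0.30, and Foxa3 of that list was among the set-aside genes. Of 20 glycolysis and hypoxia genes 0 were called in limma, with a median of -0.08. An unadjusted p under 0.05 was found for 2 of them, against 15.2% of all tested genes.

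Markers of the cell types of the lung were read beside the 60 genes. Of 18 general lung epithelial genes 0 were called in limma, 6 had an unadjusted p under 0.05, against 15.2% of all tested genes, and the median log2 fold change was 0.23. The summed level of 6 epithelial markers was 761 and 817 FPKM in the Controls and 908 and 982 FPKM in the Shh-Stk11 libraries. Of 5 tested multiciliated cell markers, 5 were lower, and their list summed to 129 and 141 FPKM against 35.7 and 36.3 FPKM. Of 4 secretory cell markers, Scgb3a2 and Upk3a were lower, with log2 fold changes of -1.41 and -1.49 (limma adjusted p 0.0422 and 0.00743), and Scgb1a1 had a log2 fold change of 1.35 (limma adjusted p 0.144). The 6 red blood cell markers summed to 5567 and 5780 FPKM against 3738 and 4094 FPKM, the 8 mesenchymal markers to 1057 and 913 FPKM against 848 and 774 FPKM, and the 5 mesothelial markers to 105 and 86.3 FPKM against 50.5 and 68.2 FPKM. The summed level of 7 neuroendocrine markers was 9.46 and 14.2 FPKM against 21.7 and 20.3 FPKM, and that of 6 endothelial markers 661 and 563 FPKM against 451 and 483 FPKM. The 6 cartilage markers summed to 8.05 and 10.1 FPKM against 19.6 and 11.7 FPKM. The 3 tested had log2 fold changes from 0.72 to 0.76, with 0 called in limma and 1, Sox9, under an unadjusted p of 0.05. Sox9 made up most of this sum, at 6.35 and 7.03 FPKM against 14.5 and 8.45 FPKM. It is also on the lists of general lung epithelial genes and of growth and injury genes. The 6 adipose markers summed to 28.8 and 24.7 FPKM against 28.3 and 53.4 FPKM, and Shh-Stk11 2 stood above the other 3 libraries. Most of this sum was Fabp4, at 22.2 and 17.8 FPKM against 22.2 and 43.2 FPKM. The 6 immune markers summed to 344 and 311 FPKM against 218 and 402 FPKM, and 0 were called in limma. Mrc1 and Ptprc had an unadjusted p under 0.05 in limma, with log2 fold changes of 0.58 and 0.77. Cd68 was at 0.32, Csf1r at 0.03, and Lyz2 and C1qa were each at -0.20. The 10 skeletal muscle markers summed to 14.5 and 25.6 FPKM against 16.1 and 13.5 FPKM, and the 6 heart muscle markers to 116 and 264 FPKM against 150.1 and 58.2 FPKM. Markers of thyroid and parathyroid summed to at most 0.154 FPKM. The part of these cell types in the rise of the 60 genes was not tested.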

How the data were processed

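Total RNA of whole E16.5 lungs was sequenced as single-end 50-base reads, per the methods of the study. The authors deposited FPKM values per gene and library. The submitters' processing notes name TopHat2 2.0.13, Cufflinks 2.2.1 and the builds GRCm38 and mm9 with no role, and the annotation and strand handling are not given in the sources used here. The design had 2 libraries per genotype, and which libraries shared a litter is not given in the sources used here.

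The 60 genes, lists and families were chosen with earlier results of these data known. R 4.3.3 and limma 3.58.1 were used on log2(FPKM + 0.1) for the 13770 genes whose mean reached 0.5 FPKM, with genotype as the only term, eBayes with trend, two-sided tests and Benjamini-Hochberg adjustment at 0.05. The scale understates changes of low genes. With 2 libraries on each side, the smallest p of an exact permutation test is 0.333. The fit was tested on simulated data.

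Values per library are given for the 15 genes with the largest separation (Control values under 0.1 FPKM set to 0.1), the 10 with the highest Shh-Stk11 mean, the highest 2 of each role, members of the lists, and the 3 genes on each side of the threshold, and other genes were chosen after their values were seen. Roles were assigned from general knowledge after the genes were known. Read numbers were estimated from low values of genes with 1 transcript of at least 2000 bases, after 210 bases were taken off the length. With these, 67.1% to 71.5% of values lay within 0.1 of a whole read. The longest transcripts of Oosp1, Ccdc83, Them5, Cst8 and Sprr1a have 804 to 1546 bases, under that limit of 2000. The read numbers given for these genes are thus less certain. Symbols were matched to GENCODE M21 and RefSeq GRCm38.p6, and promoters came from RefSeq. The alternatives were other pseudocounts, filters and scalings, eBayes without trend, a replicate block, removal of the length and GC trend, each library left out, and other thresholds of the rule. The values of 1 of the 60 genes and of 1 of the relatives are not reported here.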

Additional observations from a re-analysis of the deposited data

How the results depend on the processing

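The number of doubling genes was 60 as reported, 259 with a separation of at least 1.5, 18 with at least 3 and 31 with a Shh-Stk11 mean of at least 5 FPKM. It was 126 to 141 with 1 library left out, since the rule then had fewer values to meet. Quantile normalization (68), median-ratio scaling (69), the removed length and GC trend (61) and a Shh-Stk11 mean of at least 0.5 FPKM (73) kept it within 1.5 times. The first 2 of these kept all 60 genes. Their median log2 fold change of 1.48 became 1.15 with a pseudocount of 1, and with 1 library left out it was 1.46 to 1.55.

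Over all tested genes, 135 were higher and 178 lower. Without a filter these were 20 and 41, after removal of the length and GC trend 87 and 104, and with 1 library left out 15 to 64 and 23 to 127. A filter of at least 5 FPKM gave 110 and 90. The replicate block gave 6 and 7. Same-numbered libraries had a correlation of deviations of -0.114, and the labels tie the numbers to no litter. With the numbers crossed, a fit added after the data were seen, 360 were higher and 315 lower.

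In the fixed lists, the 2 calls of cyclic AMP targets became 1 with a filter of at least 5 FPKM and with no filter, 0 with the replicate block and 0 to 1 with 1 library left out. The 1 call of growth and injury genes became 0 with no filter, with the replicate block and with any 1 library left out, and 2 with the crossed block. In the LKB1-loss list 1 gene was called once the length and GC trend was removed. The call of Egr1 was lost in 6 of 14 alternatives, that of Tnfrsf12a in 6 of 15 and that of Crh in 2 of 15, and their directions stayed. Leaving out a library removes a sample, and a filter changes the number of genes tested. The cause of the other changes was not tested. With 1 library left out, the lone library is assumed to vary like the others.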
